A study of Mus with 2 samples.

Results

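The core genes of the circadian clock were followed in single-nucleus RNA-seq data of interscapular brown adipose tissue (iBAT). The members were 10 listed genes, *Arntl*, *Clock*, *Npas2*, *Per1*, *Per2*, *Per3*, *Cry1*, *Cry2*, *Nr1d1* and *Dbp*, and all 10 were found among the 32285 genes of the matrices. Genes entered the list by name, without a threshold on measured values. Nuclei came from 2 libraries of C57BL/6 mice aged 8 weeks on a chow diet. The control library was made from *Wtap* flox/flox mice, which carry floxed *Wtap* alleles and no Cre. The other library, labelled *Wtap*-BKO, was of *Wtap* flox/flox mice that also carried *Ucp1*-iCre, a Cre recombinase driven by the gene of the brown adipocyte uncoupling protein. Each library was 1 pool of nuclei from 4 mice, so there was no replicate of either genotype, and no test between genotypes was made. The question was whether the difference between the libraries looked like a shift of clock phase, with activators and their targets moving in opposite directions, and whether it was shared by the cell types of the tissue.

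As background, the mammalian clock is a feedback loop in nearly every cell. ARNTL (BMAL1) pairs with CLOCK or NPAS2, binds E-box elements and drives transcription of the *Per* and *Cry* genes, of *Nr1d1* (REV-ERBα) and of *Dbp*. PER and CRY proteins then repress the pair, and REV-ERBα represses *Arntl* and *Npas2* through a different element. In tissues of mice held in light and dark, mRNAs of *Arntl* and *Npas2* therefore peak at about the opposite time of day from those of *Nr1d1* and *Dbp*, *Clock* mRNA cycles weakly, and *Cry1* peaks later than the other E-box-driven genes. The hour of tissue collection is not given in the sources used here for either library. A difference in hour and a difference in genotype cannot be told apart in these data.

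The control library held 9494 nuclei with a median of 954 UMIs, and the library labelled *Wtap*-BKO held 8772 nuclei with a median of 1306 UMIs. *Wtap* itself did not separate the libraries. It had 554 and 734 UMIs over all nuclei, which is 51.4 and 52.6 UMIs per 1000000 (CPM), and in adipocyte-like nuclei it was at 49.97 and 48.3 CPM. These counts are over the whole gene, and counts over the floxed part were not analysed here. Nuclei were clustered and named from marker genes into 6 lineages with at least 100 nuclei in each library. In the order *Wtap* flox/flox and labelled *Wtap*-BKO, there were 6736 and 4917 adipocyte-like, 1165 and 838 endothelial-like, 441 and 213 pericyte-like, 280 and 494 fibroblast-like, 288 and 1118 macrophage-like, and 120 and 746 T cell-like nuclei. Of the 11 markers of the T cell-like lineage, 1 was at 0 in the control library, and no marker was at 0 in its own lineage elsewhere. Of the UMIs of adipocyte-like nuclei, 4.50% came from mitochondrially encoded genes in the control library and 11.7% in the other. RNA of adipocytes was found in every lineage. The median level of the 12 adipocyte markers in the other 5 lineages was between 42.9% and 66.9% of that in control adipocyte-like nuclei, and between 28.1% and 45.8% in the library labelled *Wtap*-BKO. The libraries shared 20 cell barcodes. For each gene, CPM is its UMIs per 1000000 UMIs of all genes in the same lineage and library, and differences are log2 ratios of CPM, with the control library as the denominator. All intervals are exact 95% intervals of the counting error and leave out the spread between mice or preparations. A log2 ratio is given for genes that reached 20 UMIs when both libraries were added. CPM is not per gene length, so levels are compared between lineages and libraries of 1 gene only.

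In adipocyte-like nuclei the activators were lower and the genes *Dbp*, *Nr1d1*, *Cry2* and *Cry1* were higher in the library labelled *Wtap*-BKO. All 10 members reached 20 UMIs there, and 6 were past 2-fold. The 3 activators were at least 2-fold lower, against 4.25% of all 14080 genes measured in these nuclei. *Clock*, at -1.03, was only just past 2-fold and fell short of it under some alternatives. *Dbp*, *Cry2* and *Nr1d1* were at least 2-fold higher, against 14.8% of all genes. The *Per* genes moved least. The other lineages did not all share this picture. *Arntl* was higher in T cell-like nuclei, *Npas2* was lower in fibroblast-like nuclei, and most intervals for the other activators spanned 0.

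**Figure D1:**
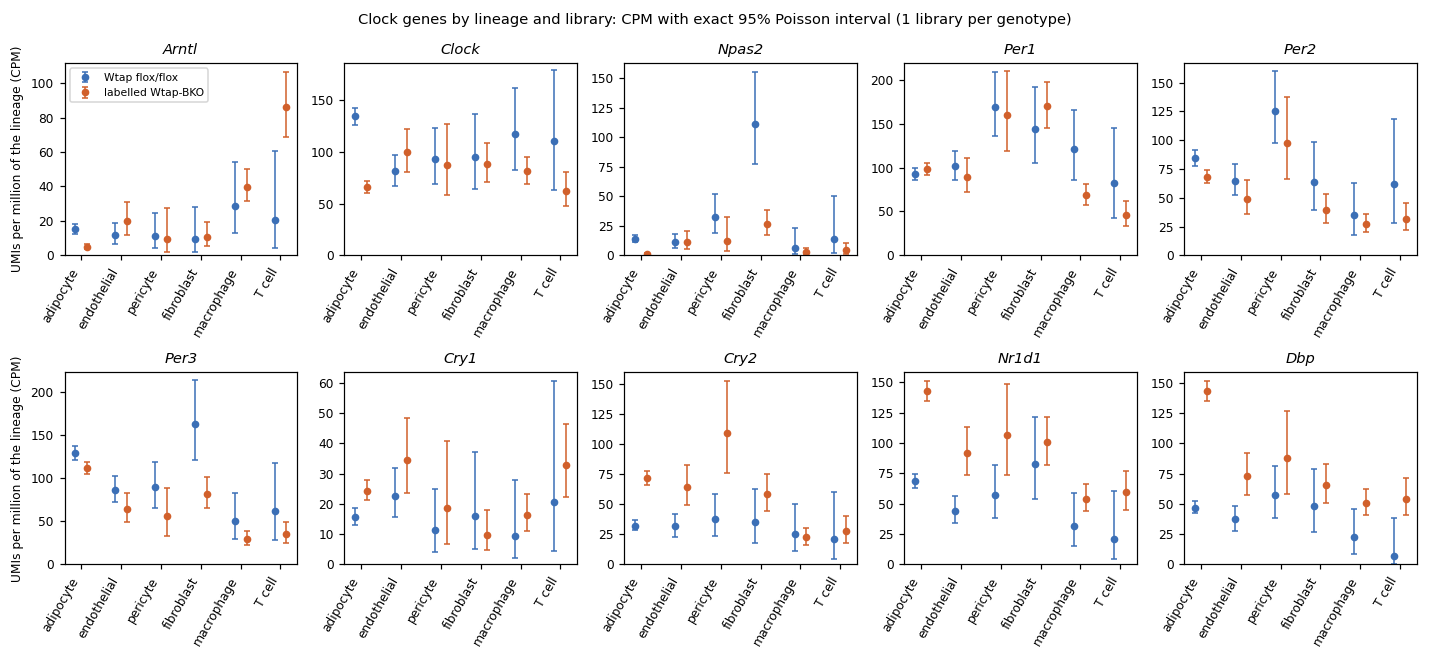
Level of the 10 members (panels) in 6 lineages (x axis) and 2 libraries (blue, *Wtap* flox/flox; orange, labelled *Wtap*-BKO), as UMIs per 1000000 of the lineage (y axis) with exact 95% Poisson intervals. *Dbp* and *Nr1d1* stood highest in adipocyte-like nuclei labelled *Wtap*-BKO, at 142.8 CPM each, while *Arntl* was highest in T cell-like nuclei of that library, at 86.0 CPM.

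*Arntl* (chr7:113178471-113314126, GRCm38, RefSeq), the activator without which the clock stops, had 115 UMIs in control adipocyte-like nuclei and 42 in the other, or 15.2 and 5.04 CPM. The log2 ratio was -1.59 (interval -2.13 to -1.07). The 2 Poisson intervals, 12.5 to 18.2 and 3.63 to 6.82 CPM, did not overlap. In T cell-like nuclei the direction was opposite. There, *Arntl* had 3 and 84 UMIs, or 20.7 and 86.0 CPM, with a log2 ratio of 2.05 (0.46 to 4.36). The 84 UMIs lay in 66 nuclei, with at most 5 in 1 nucleus, and the ratio rests on 3 UMIs in the control library. T cell markers summed to 2385 CPM in control T cell-like nuclei and to 4574 in the other library. By own marker UMIs alone, 50.8% and 70.8% of these nuclei were also T cell-like. The part of this difference in the *Arntl* ratio was not tested. In endothelial-like nuclei *Arntl* was at 11.7 and 19.8 CPM (17 and 19 UMIs, log2 ratio 0.76, -0.26 to 1.80), and in macrophage-like nuclei at 28.6 and 39.9 CPM (9 and 73 UMIs, 0.48, -0.52 to 1.66). Neither interval excluded 0, and among endothelial-like nuclei with at most 5% mitochondrial UMIs the ratio turned to -0.80. Pericyte-like nuclei held 6 and 3 UMIs and fibroblast-like nuclei 3 and 11, too few for a ratio.

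*Npas2* (chr1:39193702-39363240), the partner that can stand in for CLOCK, showed the largest log2 ratio of the 10 members in adipocyte-like nuclei. It went from 107 UMIs to 10, or from 14.1 to 1.201 CPM, a log2 ratio of -3.55 (-4.66 to -2.62). Fibroblast-like nuclei had the most *Npas2* in the control library and also had less of it in the library labelled *Wtap*-BKO, where their interval overlapped that of pericyte-like nuclei. Their 35 and 27 UMIs were 111.6 and 26.3 CPM, a log2 ratio of -2.08 (-2.86 to -1.32). The 35 UMIs lay in 21 nuclei, with at most 5 in 1 nucleus. Pericyte-like nuclei followed in level, with 17 and 4 UMIs, 32.4 and 12.5 CPM and a log2 ratio of -1.37 whose interval reached 0.25. Endothelial-like nuclei were at 0.06 (-1.19 to 1.26), with 16 and 11 UMIs. Its sign changed to negative under each of 3 other scalings. Macrophage- and T cell-like nuclei had at most 5 UMIs of *Npas2* in either library.

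*Clock* (chr5:76209868-76305603), the DNA-binding partner of ARNTL, had 1020 and 548 UMIs in adipocyte-like nuclei, or 134.5 and 65.8 CPM, and a ratio of -1.03 on the log2 scale (-1.18 to -0.88). In no other lineage did the interval exclude 0. The log2 ratios were 0.30 in endothelial-like (-0.03 under median-of-ratios scaling and -0.12 with at most 5% mitochondrial UMIs), -0.09 in pericyte-like, -0.11 in fibroblast-like, -0.53 in macrophage-like and -0.82 in T cell-like nuclei. Against the median log2 ratio of all genes in the lineage, which was 0.08 in macrophage-like and 0.14 in T cell-like nuclei, the intervals of the last 2 lay below that median.

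The 3 *Per* genes encode the repressors whose mRNAs accumulate when ARNTL is active. *Per1* (chr11:69095108-69109965), which is also induced by glucocorticoids and by acute signals, had 700 and 820 UMIs in adipocyte-like nuclei, or 92.3 and 98.5 CPM, with a log2 ratio of 0.09 (-0.05 to 0.24). *Per2* (chr1:91415977-91459351) had 640 and 567 UMIs there, or 84.4 and 68.1 CPM, with a log2 ratio of -0.31 (-0.48 to -0.14). *Per3* (chr4:150997018-151044707) had 979 and 929 UMIs, or 129.1 and 111.6 CPM, with a log2 ratio of -0.21 (-0.34 to -0.08). The changes of *Per2* and *Per3* were small, and *Per3* was at 0.03 among nuclei with at most 5% mitochondrial UMIs. Log2 ratios of *Per2* and *Per3* were below 0 in all 6 lineages, from -0.97 to -0.31 and from -0.99 to -0.21. In pericyte-like nuclei that sign turned for *Per2* with at least 1000 UMIs, at 0.05, and for *Per3* with at most 5% mitochondrial UMIs, at 0.30. Outside adipocyte-like nuclei only *Per3* in fibroblast-like nuclei had an interval below 0, at 162.6 and 81.9 CPM (51 and 84 UMIs, -0.99, -1.51 to -0.46). For *Per1* the interval excluded 0 in macrophage-like nuclei, at 120.9 and 68.4 CPM (38 and 125 UMIs, -0.82, -1.36 to -0.26). In endothelial-like nuclei the intervals of all 3 *Per* genes held 0 but lay below the median log2 ratio of all genes there, 0.34.

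The cryptochromes are the repressors that act with the PER proteins. *Cry2* (chr2:92403646-92434085) was at 32.3 and 71.7 CPM in adipocyte-like nuclei (245 and 597 UMIs), a log2 ratio of 1.15 (0.93 to 1.37). It was also higher in endothelial-like nuclei, at 31.7 and 64.7 CPM (46 and 62 UMIs, 1.03, 0.46 to 1.61), and in pericyte-like nuclei, at 38.1 and 109.7 CPM (20 and 35 UMIs, 1.53, 0.69 to 2.40). The endothelial-like ratio fell to 0.44 with at most 5% mitochondrial UMIs. In macrophage-like nuclei it was at 25.5 and 22.4 CPM (8 and 41 UMIs, -0.18, -1.29 to 1.12). *Cry1* (chr10:85131700-85185054) was at 15.7 and 24.4 CPM in adipocyte-like nuclei (119 and 203 UMIs, 0.64, 0.30 to 0.97). Its ratio was above 0 in the 4 lineages where it could be given, between 0.60 and 0.78, with an interval that excluded 0 in adipocyte-like nuclei alone. In T cell-like nuclei it turned to -0.90 with at most 5% mitochondrial UMIs.

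*Nr1d1* and *Dbp* are direct E-box targets with short-lived mRNAs. *Nr1d1* (chr11:98767932-98775377), the repressor of *Arntl*, had 519 and 1189 UMIs in adipocyte-like nuclei, or 68.4 and 142.8 CPM, a log2 ratio of 1.06 (0.91 to 1.21). *Dbp* (chr7:45705100-45710203), a transcription factor that acts on D-box elements of output genes, had 355 and 1189 UMIs, or 46.8 and 142.8 CPM, a log2 ratio of 1.61 (1.44 to 1.78). Both were above 0 in all 6 lineages. For *Nr1d1* the log2 ratio was 1.06 (0.58 to 1.55) in endothelial-like nuclei, with 64 and 88 UMIs (0.52 with at most 5% mitochondrial UMIs), and 0.90 (0.15 to 1.66) in pericyte-like nuclei, with 30 and 34. It was 0.28 in fibroblast-like, 0.77 in macrophage-like and 1.52 in T cell-like nuclei, each with an interval that held 0, and the fibroblast-like value turned to -0.24 without the highest doublet scores. For *Dbp* it was 0.98 (0.44 to 1.51) in endothelial-like nuclei, with 54 and 70 UMIs, 1.19 (0.09 to 2.54) in macrophage-like nuclei, with 7 and 93, and 2.97 (0.43 to 8.30) in T cell-like nuclei, with 1 and 53. It was 0.62 in pericyte-like and 0.45 in fibroblast-like nuclei, with intervals that held 0.

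**Figure D2:**
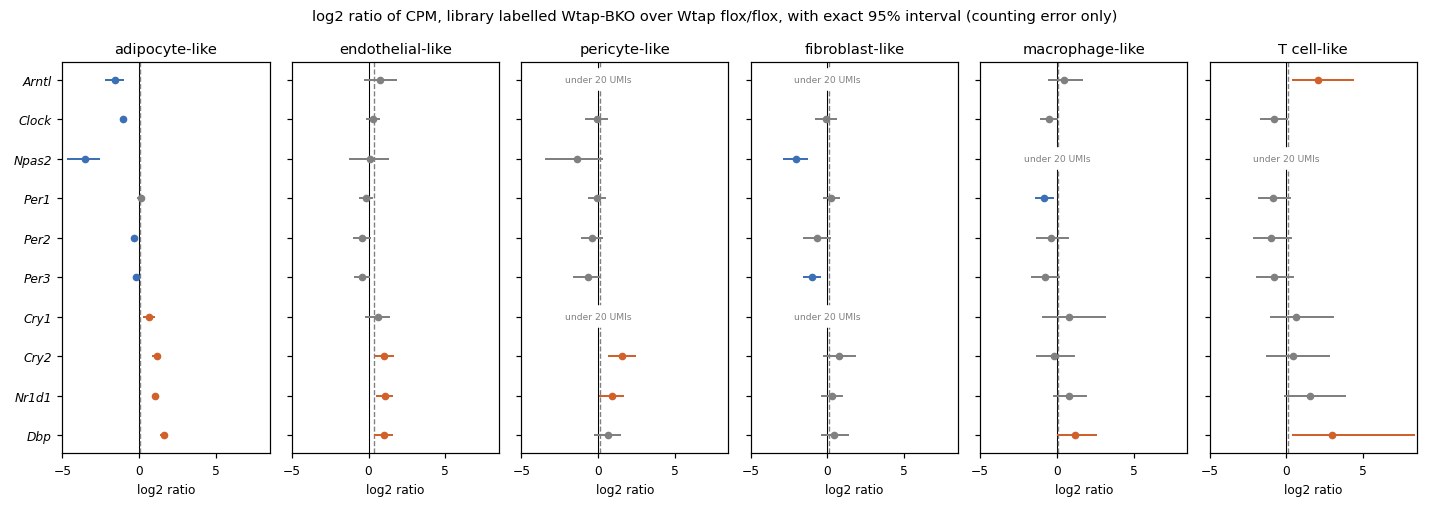
Log2 ratio of CPM (x axis), labelled *Wtap*-BKO over control, of the members (y axis) in 6 lineages (panels), with exact 95% intervals. Orange marks an interval above 0, blue one below 0 and grey one that holds 0; the dashed line is the median of all genes of the lineage, 0.34 in endothelial-like nuclei. Activators lay to the left and cryptochromes, *Nr1d1* and *Dbp* to the right in adipocyte-like nuclei, while *Arntl* lay to the right in T cell-like nuclei.

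Counts past 2-fold outside adipocyte-like nuclei were small. Endothelial-like nuclei had 2 of 10 measured members at least 2-fold higher, *Cry2* and *Nr1d1*, where 14.8% of all genes were higher and 1.67% lower, and both members lay within 0.1 of the fold used. The median log2 ratio of all genes was 0.34 in that lineage, and against it *Cry2* was 0.69 and *Nr1d1* 0.72 higher. Pericyte-like nuclei had 1 of 8 members higher, *Cry2*, and 1 lower, *Npas2*, against 7.99% and 3.95% of genes. Fibroblast-like nuclei had 1 of 8 lower, *Npas2*, and 0 higher, against 4.28% and 11.5%. Macrophage-like nuclei had 1 of 9 higher, *Dbp*, and 0 lower, against 12.6% and 6.22%. T cell-like nuclei had 3 of 9 higher, *Arntl*, *Nr1d1* and *Dbp*, and 0 lower, against 17.0% and 8.09%. With 8 to 10 members per lineage, these shares were read only beside the share of all genes.

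Of the 7 members measured in all 6 lineages, 4 kept 1 sign throughout. These were *Per2* and *Per3*, below 0, and *Nr1d1* and *Dbp*, above 0. Of all 5772 genes measured in every lineage, 24.9% kept 1 sign. None of the 7 members was past 2-fold the same way in every lineage, as were 0.918% of genes. *Clock*, *Per1* and *Cry2* had both signs. The only negative value of *Cry2*, in macrophage-like nuclei, turned to 0.36 when lineages were taken from own marker UMIs. Its T cell-like value of 0.41 turned to -0.18 among nuclei with at least 1000 UMIs. The lineages of a library share its mice, its preparation and its free RNA, so they are not replicates of each other.

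RNA from adipocytes in the droplets of other nuclei bears on these signs. For each member, the level that this RNA would give in a lineage was taken as its CPM in adipocyte-like nuclei of the same library times the lineage's share of the adipocyte marker level. *Dbp* in T cell-like nuclei labelled *Wtap*-BKO was observed at 54.3 CPM, and the adipocyte share would give 55.2. In macrophage-like nuclei the values were 50.9 observed and 45.4 from the share, and in endothelial-like nuclei 73.1 and 65.3. In these 3 lineages the Poisson interval of *Dbp* held the level from the share, and in pericyte- and fibroblast-like nuclei it lay above. Subtraction moved genes in general. Among genes that were measured and above 0 in both libraries after it, 73.3% to 92.0% of the measured genes of a lineage, the median log2 ratio rose from 0.34 to 1.15 in endothelial-like nuclei, from 0.11 to 0.59 in pericyte-like, from 0.10 to 0.45 in fibroblast-like, from 0.08 to 0.47 in macrophage-like and from 0.14 to 0.71 in T cell-like nuclei. After the share was subtracted, the log2 ratio of *Dbp* was -0.13 in endothelial-like, 0.36 in pericyte-like and -0.14 in fibroblast-like nuclei, and in macrophage- and T cell-like nuclei no ratio could be given because less than 0 was left in a library. These 3 values of *Dbp* lay below the median of all genes by 1.28, 0.23 and 0.59. *Nr1d1* had ratios of 3.69 in endothelial-like nuclei, 1.38 in pericyte-like and 0.17 in fibroblast-like, the first against only 2.06 CPM left in the control library and the last below the median of all genes. In T cell- and macrophage-like nuclei labelled *Wtap*-BKO, *Nr1d1* was observed at 59.4 and 54.15 CPM, where the share would give 55.2 and 45.4. Both intervals held the level from the share. Control *Nr1d1* lay below the share in these lineages, at 20.7 against 45.75 and 31.8 against 34.3 CPM, so no ratio could be given.

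In endothelial-like nuclei the ratios became 0.47 for *Per2* and 0.86 for *Per3*, which changes their sign but leaves both below the median of all genes there. Against that median, *Per2* was lower in the 4 lineages and *Per3* in the 3 lineages that gave a ratio after subtraction. *Per3* in macrophage-like nuclei was observed at 50.9 and 29.5 CPM, where the share would give 64.6 and 35.5, and in T cell-like nuclei at 62.2 and 35.8 CPM, where it would give 86.3 and 43.2. The intervals of *Per3* held the level from the share in 3 of 5 lineages of the control library and in 4 of 5 of the other. In fibroblast-like nuclei *Per3* lay above the share in both libraries, and its ratio after subtraction was -1.08. *Cry2* in macrophage- and T cell-like nuclei labelled *Wtap*-BKO was at 22.4 and 27.6 CPM, where the share would give 22.8 and 27.7.

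For the activators, the level from the share was lower in the library labelled *Wtap*-BKO in every lineage. Both its factors, the CPM in adipocyte-like nuclei and the lineage's share, were lower in that library. In the library labelled *Wtap*-BKO, the intervals of *Arntl*, *Npas2* and *Clock* lay above the level from the adipocyte share in 5 of 5 lineages each. *Arntl* in T cell-like nuclei was observed at 86.0 CPM where the share would give 1.95, and in macrophage-like nuclei at 39.9 where it would give 1.60. In the control library the interval lay above the share in 1 of 5 lineages for *Arntl*, 2 of 5 for *Npas2* and 3 of 5 for *Clock*, and held it in the rest. *Arntl* was above it in macrophage-like nuclei, at 28.6 CPM against 7.59. Several other control values rest on 2 or 3 UMIs with wide intervals, so the counts of the 2 libraries are not compared. *Npas2* in fibroblast-like nuclei was far above the share in both libraries, at 111.6 against 6.06 and at 26.3 against 0.338 CPM, and its log2 ratio after subtraction was -2.02. Once the share was taken off, *Clock* was at 1.23 in pericyte-like, 0.89 in fibroblast-like, 0.26 in macrophage-like and 0.84 in T cell-like nuclei. Against the shifted median of all genes these values were 0.64, 0.44, -0.20 and 0.13, where the values as counted had been -0.19, -0.21, -0.61 and -0.96. In endothelial-like nuclei it had no ratio, since control *Clock* was at 81.2 CPM and the share would give 82.5. The share is a median over 12 markers, some of which other cell types are known to express at a low level, so the values after subtraction are estimates without an interval.

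**Figure D3:**
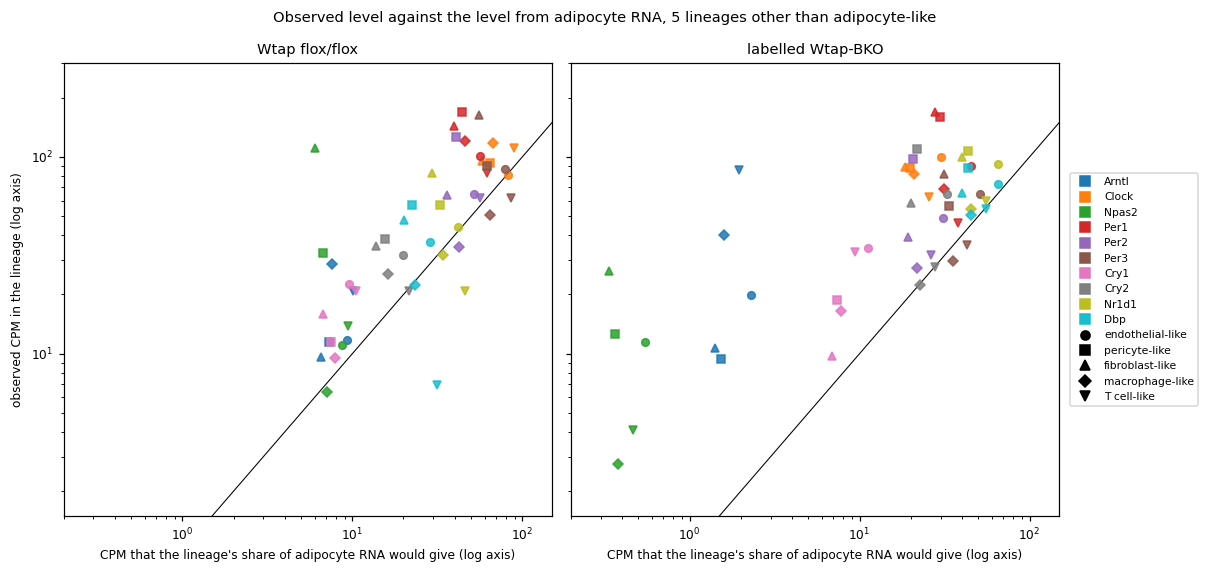
Observed CPM (y axis, log) of each member in the 5 lineages other than adipocyte-like, against the CPM that the lineage's share of adipocyte RNA would give (x axis, log), in the control library (left) and the library labelled *Wtap*-BKO (right). On the line both are equal; in the right panel *Dbp* in macrophage-, endothelial- and T cell-like nuclei lies near the line, and *Arntl* and *Npas2* lie far above it.

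A ratio taken within a lineage does not depend on its total UMIs. The summed UMIs of *Per1*, *Per2*, *Per3*, *Nr1d1* and *Dbp* were divided by those of *Arntl* and *Npas2* in each library. In adipocyte-like nuclei there were 3193 E-box-driven to 222 activator UMIs in the control library, a ratio of 14.4, and 4694 to 52 in the other, a ratio of 90.3. The log2 odds ratio was 2.65 (2.20 to 3.12). Fibroblast-like nuclei moved the same way, from 157 to 38 UMIs and a ratio of 4.13 to 468 to 38 UMIs and a ratio of 12.3, a log2 odds ratio of 1.58 (0.83 to 2.32). The other 4 lineages did not reach these values. Pericyte-like nuclei were at 1.02 (-0.29 to 2.52), endothelial-like at -0.32 (-1.11 to 0.47), macrophage-like at -0.47 (-1.59 to 0.53) and T cell-like at -1.43 (-3.19 to -0.0012). The T cell-like value rests on 34 and 5 UMIs in the control library against 222 and 88 in the other. The interval of adipocyte-like nuclei did not overlap those of endothelial-, macrophage- and T cell-like nuclei. With the adipocyte share subtracted, endothelial-like nuclei were at -2.03, macrophage-like at -0.97, pericyte-like at 0.75 and fibroblast-like nuclei at 1.52. T cell-like nuclei gave no value, because the E-box-driven genes summed to less than 0 in the control library. *Npas2* gave 35 of the 38 activator UMIs of fibroblast-like nuclei in the control library and 27 of 38 in the other. With *Clock* added to the activators, the log2 odds ratio was 1.61 in adipocyte-like, 0.65 in fibroblast-like and -0.12 in T cell-like nuclei.

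**Figure D4:**
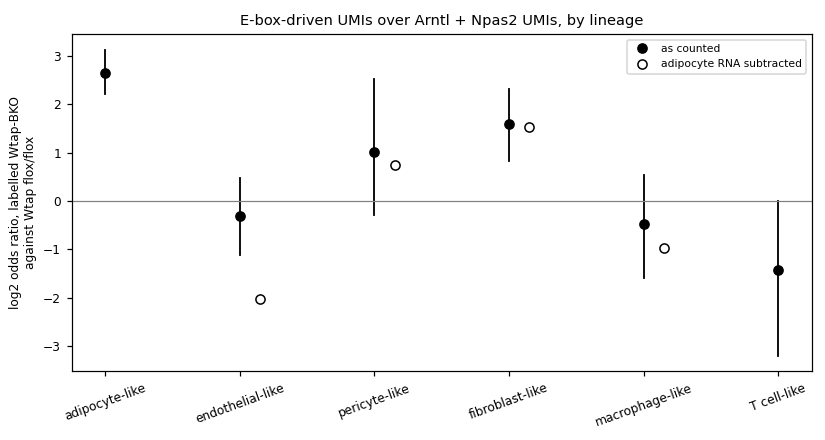
Log2 odds ratio (y axis) of summed E-box-driven over summed *Arntl* and *Npas2* UMIs, labelled *Wtap*-BKO against control, in 6 lineages (x axis), with exact 95% intervals for the values as counted (filled) and without intervals after subtraction of adipocyte RNA (open, no value in T cell-like nuclei). Adipocyte- and fibroblast-like nuclei lie above 0 at 2.65 and 1.58, and T cell-like nuclei lie lowest of the values as counted, at -1.43.

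Each library had its own order of lineages for each gene. *Arntl* in the control library ranged from 9.57 CPM in fibroblast-like to 28.6 in macrophage-like nuclei, and the intervals of all neighbours in this order overlapped. In the library labelled *Wtap*-BKO, T cell-like nuclei led at 86.0 CPM, followed by macrophage-like nuclei at 39.9 and endothelial-like nuclei at 19.8, with no overlap between these 3 neighbours, and adipocyte-like nuclei were last at 5.04. For *Npas2* the order in the control library was led by fibroblast-like nuclei at 111.6 and pericyte-like nuclei at 32.4 CPM, whose intervals did not overlap. The interval of pericyte-like nuclei lay above that of adipocyte-like nuclei, next in order at 14.1 CPM, and overlapped those of T cell- and macrophage-like nuclei, which rest on 2 UMIs each. *Dbp* in that library had no neighbours with intervals apart, from 6.91 CPM in T cell-like to 57.1 in pericyte-like nuclei, and in the other library adipocyte-like nuclei stood apart at the top. *Per1* was highest in pericyte- and fibroblast-like nuclei in both libraries, at 169.5 and 143.5 CPM in the control library and at 159.8 and 169.7 CPM in the other. In the control library both intervals overlapped that of macrophage-like nuclei, and only in the other library did they stand apart from the remaining lineages.

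The differences in adipocyte-like nuclei were then looked at in parts of that lineage. It held 5 clusters, led by mitochondrially encoded genes in cluster 1, by *Slc7a10* and *Cyp2e1* in cluster 8 and by interferon-induced genes in cluster 10. *Arntl* was lower in the 3 clusters where it had 20 UMIs, with log2 ratios from -2.00 to -1.37, and *Npas2* in the same 3, from -5.19 to -2.54. *Clock* ranged from -1.04 to -0.33 in the 5 clusters, with an interval below 0 in 4 of them and one that held 0 in cluster 10 (-1.12 to 0.52). *Dbp* was higher in 5 of 5, from 0.55 to 1.96. *Nr1d1* ranged from 0.66 to 1.35 and *Cry2* from 0.41 to 1.71, each with an interval above 0 in 4 of 5 clusters. The exceptions were *Nr1d1* in cluster 10 (-0.19 to 1.63) and *Cry2* in cluster 8 (-0.34 to 1.25). The lowest value of *Dbp* was in cluster 8, where it was at 139.8 CPM in the control library already, against 23.7 to 47.6 in the other 4 clusters. *Per1* in cluster 8 was at 199.7 and 128.9 CPM, the only cluster with an interval for *Per1* that excluded 0. Since mitochondrial share and depth differed between the libraries, nuclei were also split by both. Among nuclei with at most 5%, 5% to 10% and over 10% mitochondrial UMIs, *Dbp* was higher by 1.51 to 1.86 and *Arntl* ranged from -1.85 to -0.33. *Clock* ranged from -0.90 to -0.58 in these 3 parts, short of 2-fold in each. Among nuclei with under 1000, 1000 to 2000 and at least 2000 UMIs, *Dbp* was higher by 1.31 to 1.90, and *Npas2* ranged from -3.73 to -3.38. In each of these 6 parts the activators that could be measured were below 0 and *Dbp*, *Nr1d1* and both cryptochromes above 0, and the interval held 0 in 2 of them for *Arntl* and in 3 for *Cry1*.

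**Figure D5:**
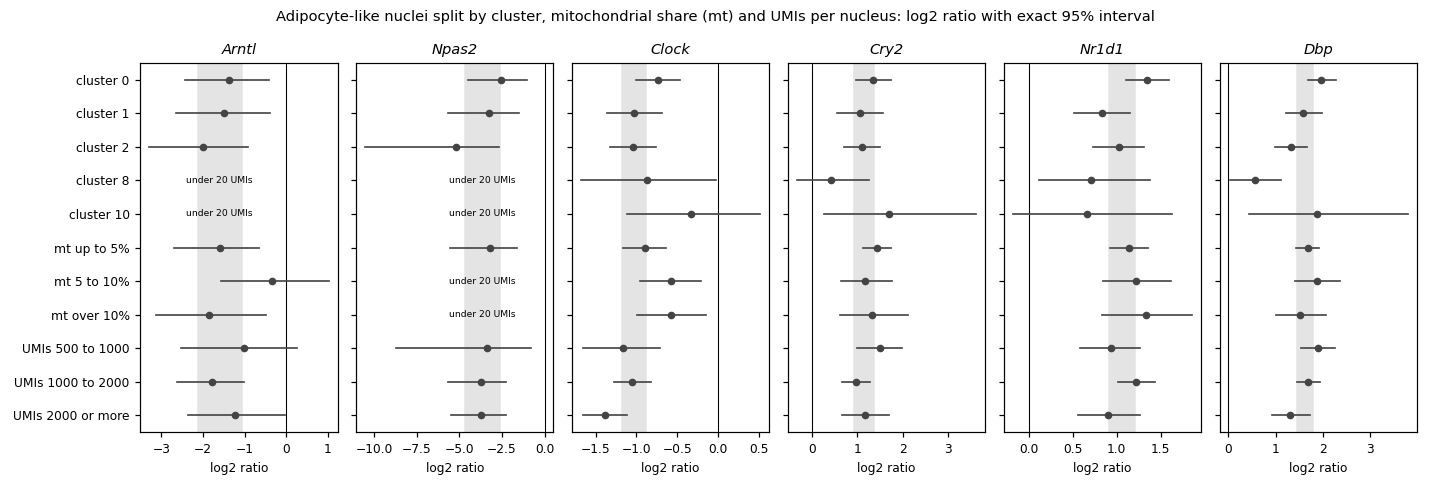
Log2 ratio (x axis) of 6 members (panels) within parts of the adipocyte-like nuclei (y axis): 5 clusters, 3 classes of mitochondrial share and 3 classes of UMIs per nucleus, with exact 95% intervals. The grey band is the interval over all adipocyte-like nuclei; every value of *Arntl*, *Npas2* and *Clock* lies below 0 and every value of *Cry2*, *Nr1d1* and *Dbp* above it.

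Other clock genes were counted by list. Of 12 other clock transcription factors and E-box outputs, all 12 were measured in adipocyte-like nuclei, 0 were at least 2-fold higher and 2 at least 2-fold lower, where 14.8% and 4.25% of all genes were, and the median log2 ratio was 0.14 against 0.07 for all genes. The 2 were *Nfil3*, a D-box repressor whose gene is under REV-ERB control, with 263 and 131 UMIs (-1.14, -1.45 to -0.83), and *Rorb*, a nuclear receptor, with 114 and 54 UMIs (-1.21, -1.71 to -0.73). *Nr1d2*, the relative of *Nr1d1*, was at -0.11 with 1896 and 1928 UMIs and so did not follow *Nr1d1*. *Tef*, a relative of *Dbp*, was at -0.25 (-0.33 to -0.18) with 2974 and 2744 UMIs. In macrophage-like nuclei 2 of 11 measured genes of this list were at least 2-fold higher and 1 lower, against 12.6% and 6.22% of all genes. In T cell-like nuclei 0 of 7 were higher and 1 lower, against 17.0% and 8.09%, and the 1 was *Nr1d2*, at -1.13. *Nr1d2* in T cell-like nuclei was at 276.5 and 125.9 CPM, where the adipocyte share would give 167.1 and 89.6, and its ratio after subtraction was -1.59. *Tef* in macrophage-like nuclei, with a log2 ratio of -0.90, was at 206.9 and 111.0 CPM, close to the 196.4 and 104.7 that the share would give.

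Of 9 clock protein kinases and ubiquitin ligases, 1 was at least 2-fold lower in adipocyte-like nuclei, *Fbxl21*, on 13 and 7 UMIs with an interval that held 0, against 4.25% of all genes, and the list's median was -0.18. Of 10 clock-controlled outputs, 9 were measured. *Upp2*, a uridine phosphorylase, had 618 and 2048 UMIs (1.59), and *Tspan4* had 635 and 1471 (1.08). *Nampt*, the rate-limiting enzyme of NAD salvage, had 4764 and 2060 UMIs (-1.34), and *Gys2*, a glycogen synthase, had 227 and 84 (-1.57). The list thus had 2 members at least 2-fold higher and 2 at least 2-fold lower, against 14.8% and 4.25% of all genes, with a median of -0.13.

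Genes that answer to acute signals and hormones were counted beside the clock genes. Of 10 immediate-early genes, which are induced within minutes of a stimulus, 9 were at least 2-fold higher in adipocyte-like nuclei, against 14.8% of all genes, with a list median of 1.81 against 0.07 for all genes, and *Egr1* had 53 and 1049 UMIs (4.17, 3.77 to 4.6). The list medians were 1.88 in endothelial-like, 3.19 in pericyte-like, 3.52 in fibroblast-like, 0.98 in macrophage-like and 0.83 in T cell-like nuclei, where *Egr1* and *Nr4a3* had 0 UMIs in the control library and stood at a bound set from 3 UMIs. *Egr1* in macrophage- and T cell-like nuclei labelled *Wtap*-BKO was at 59.6 and 91.1 CPM, where the adipocyte share would give 40.0 and 48.7. Of 9 glucocorticoid receptor targets, 2 were at least 2-fold lower in adipocyte-like nuclei and 1 higher, against 4.25% and 14.8% of all genes. *Fkbp5* was at -2.55 and *Zbtb16* at -2.37, and *Dusp1*, which is also induced as an immediate-early gene, was at 1.88. The list median was -0.66 there, 0.04 in endothelial-like, -0.08 in pericyte-like, 0.24 in fibroblast-like, -0.32 in macrophage-like and -0.30 in T cell-like nuclei. The log2 ratio of *Zbtb16* was between -3.17 and -1.10 in the 6 lineages. Its level in control endothelial-like nuclei, 608.4 CPM, was close to the 600.2 that the adipocyte share would give. In control fibroblast-like nuclei it was at 1671 CPM against 419.9 from the share, and its ratio after subtraction was -1.36. The ratio of *Zbtb16* after subtraction was 4.45 in endothelial-like, -0.06 in pericyte-like, -1.04 in macrophage-like and -3.32 in T cell-like nuclei. *Per1*, a target of both kinds of signal, was at 0.24 (-0.24 to 0.75) in fibroblast-like and at 0.09 in adipocyte-like nuclei. Of the 4 heat shock genes measured in adipocyte-like nuclei, 0 were at least 2-fold higher or lower, against the same shares. The part of these signals in the clock gene values was not tested.

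Among 5765 genes that are no member and were measured in all 6 lineages, those with log2 ratios closest to *Arntl* over its 4 measured lineages were *Sp4*, *Exoc6*, *Rfc1*, *Klf7* and *Mtmr2*, with root-mean-square differences of 0.542 to 0.612. *Sp4* was at -0.69 in adipocyte-like and 1.73 in T cell-like nuclei, a narrower range than that of *Arntl*. For *Dbp* over 6 lineages the closest were *Cavin1*, *Gpx8*, *Marcks*, *Midn* and *Casp8*, with differences of 0.306 to 0.418. No gene of the clock lists was among these 10.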

How the data were processed

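Single-nucleus RNA-seq counts of 2 libraries were analysed, each pooled from the iBAT of 4 mice. Per the file headers, the matrices were written by Cell Ranger 5.0.0, and the submitters' processing notes name mm10, Trimmomatic, FastQC and Seurat. The values were deposited as raw UMI counts per gene and nucleus, without normalization. Whether intronic reads were counted, and with which annotation, is not given in the sources used here. The lowest total was 500 UMIs per nucleus. The members, gene lists and alternatives were chosen with earlier results of these data known.

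As in the study, nuclei were integrated by canonical correlation analysis in Seurat 5.3.0 (R 4.3.3), with 2000 variable features, 20 principal components and a resolution of 0.5, without 64 genes of the clock and signal lists among the variable features. The study used an earlier Seurat, gives no number of variable features and names both 20 and 8 components, and 8 were tried as an alternative. The 14 clusters were named "X-like" from marker genes (3 markers or more, each with 10 UMIs and 2 times the CPM of the other nuclei; for adipocyte-like, 50% of 12 markers at 1.5 times the CPM of the other named clusters). Cluster 6, with 4.53% and 4.23% of the nuclei, stayed unnamed, and the 34 and 75 nuclei named B cell- or Schwann-like were too few. These thresholds were set after the data were seen. Among the 10 leading genes of at least 50 CPM, no other class outnumbered a cluster's own markers. Adipocyte-like clusters had 0 of their own there, and without the 50 CPM the muscle gene *Ttn* was among the leading genes of cluster 0 and the lymphatic marker *Mmrn1* among those of endothelial-like cluster 11. Scrublet in scanpy 1.11.5 called 0 doublets, so calls were not used, and the nuclei of highest score were removed as an alternative.

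UMIs were summed per lineage and library. Levels carry exact Poisson intervals and ratios exact conditional intervals (scipy), checked on simulated counts. A library with 0 UMIs was set to 3 to bound a ratio. Named genes are the members, the listed genes past 2-fold in adipocyte-like nuclei or in most lineages, and the 5 genes closest to *Arntl* and to *Dbp*. *Nr1d2*, *Tef*, *Rora* and *Ciart* were named after their values were seen. Some genes of the lists are not reported here by name. Coordinates are those of RefSeq for GRCm38.p6, where all 10 symbols matched. The alternatives changed the nuclei kept, the denominator (without mitochondrial genes, without *Gm42418*, or scaled by the median ratio of all genes), the clusters and the minimum of UMIs, or subtracted adipocyte RNA.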

Additional observations from a re-analysis of the deposited data

Results flagged for a closer look

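Intervals on opposite sides of 0 in different lineages were found for *Arntl* and, among the other clock genes reported here, for *Nr1d2*, *Rora* and *Ciart*. The difference between lineages was not tested in any of these cases, and all intervals cover counting error only. *Arntl* was at -1.59 in adipocyte-like and at 2.05 in T cell-like nuclei, the latter on 3 UMIs in the control library. *Nr1d2* was at 0.35 in endothelial-like nuclei and at -0.11 in adipocyte-like, -0.79 in macrophage-like and -1.13 in T cell-like nuclei. The median of all genes in endothelial-like nuclei was 0.34. *Rora*, an activator of *Arntl* transcription, was at 0.14 in adipocyte-like, 0.51 in endothelial-like and 0.22 in pericyte-like nuclei, and at -0.47 in macrophage-like and -0.39 in T cell-like nuclei. In macrophage-like nuclei it was observed at 416.9 and 301.9 CPM, where the share of adipocyte RNA would give 473.1 and 331.5, and in T cell-like nuclei its ratio was 0.56 after that share was subtracted. After subtraction *Nr1d2* was at 2.03 in endothelial-like, -0.83 in macrophage-like and -1.59 in T cell-like nuclei, and *Arntl* at 2.99 in T cell-like nuclei, where the median of all genes after subtraction was 1.15, 0.47 and 0.71 in these 3 lineages. *Ciart*, a repressor of the ARNTL pair, was at 0.54 in adipocyte-like and 1.75 in endothelial-like nuclei and at -1.45 in macrophage-like nuclei, on 8 and 17 UMIs in the last.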

How the results depend on the processing

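No paired analysis was possible because each genotype had 1 library. The log2 ratios of members moved outside their counting interval in 20 cases and changed the sign of a called value in 2, of 529 combinations of a ratio and an alternative. The latter were *Per3* in adipocyte-like nuclei, at 0.03 with at most 5% mitochondrial UMIs, and *Dbp* in endothelial-like nuclei, at -0.13 after adipocyte RNA was subtracted. The other scalings moved the median of all genes by up to 0.34, in endothelial-like nuclei, and subtraction of adipocyte RNA raised it to between 0.45 and 1.15. In adipocyte-like nuclei, *Arntl* ranged from -1.70 to -1.20, *Npas2* from -3.72 to -3.07 and *Dbp* from 1.54 to 1.72 over 9 alternatives. *Arntl* in T cell-like nuclei ranged from 1.42 to 3.66 over 9, and gave no ratio with lineages from own markers, where 1 library had 0 UMIs.

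The log2 odds ratio of E-box-driven to activator UMIs does not change with the denominator. With *Clock* among the activators it was 1.61 in adipocyte-like and 0.65 in fibroblast-like nuclei. With adipocyte RNA subtracted it was -2.03 in endothelial-like nuclei, and without the highest doublet scores it was -3.28 in T cell-like nuclei. *Clock* as an activator also gave -0.12 in T cell-like and 0.12 in macrophage-like nuclei, and at most 5% mitochondrial UMIs gave 0.33 in endothelial-like nuclei. Pericyte-like nuclei ranged from 0.32 with 8 principal components to 1.57 at resolution 1.0.

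For the counts past 2-fold that follow, the share of all genes past 2-fold under the same alternative is not given. Members past 2-fold in endothelial-like nuclei numbered 0 without mitochondrial genes in the denominator, 0 without *Gm42418* and 0 under median-of-ratios scaling, and 4 with adipocyte RNA subtracted. Subtraction put the all-gene median there at 1.15, itself past 2-fold. The 4 can therefore not be read as a change particular to clock genes. Pericyte-like nuclei had 1 with at most 5% mitochondrial UMIs, 1 at resolution 1.0, 1 with lineages from own markers, 1 at a minimum of 50 UMIs, and 4 with adipocyte RNA subtracted. Fibroblast-like nuclei had 3 without the highest doublet scores and 2 with at least 1000 UMIs, with at most 5% mitochondrial UMIs, without *Gm42418*, under median-of-ratios scaling, with own markers or with adipocyte RNA subtracted. Macrophage-like nuclei had 3 with at least 1000 UMIs, and 2 without the highest doublet scores, at resolution 1.0, with own markers, with adipocyte RNA subtracted or with no minimum. T cell-like nuclei had 5 without the highest doublet scores and 5 with 8 principal components. Adipocyte-like nuclei had 5 or 6 throughout. *Clock* there was at -0.90 with at most 5% mitochondrial UMIs and at -0.92 without mitochondrial genes in the denominator. *Nr1d1* there was at 0.99 under median-of-ratios scaling. Of members measured in all lineages, 2 of 4 kept 1 sign at a minimum of 50 UMIs, against 29.2% of 2640 genes, and 0 of 1 with adipocyte RNA subtracted, against 22.0% of 3151 genes. The cause of these changes was not tested. Leaving out endothelial-like cluster 11, chosen after seeing the data, moved *Clock* there to 0.76. Depth limits the lineages other than adipocyte-like, where most members had under 100 UMIs per library.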
